A study of Arabidopsis thaliana with 12 samples.

Results

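CHLP (AT1G74470) and CHLM (AT4G25080) are 2 nuclear genes of chlorophyll synthesis, one for each part of the molecule. They were chosen by their gene identifiers, with earlier results of these data known. Each has 1 probe of its own, out of 689 genes with such a probe in the whole table. Expression had been measured on 12 arrays of total RNA from Arabidopsis thaliana of the Columbia 0 ecotype, 6 from wild type (WT) and 6 from prpl11, a mutant without PRPL11, the L11 protein of the plastid ribosome's large subunit. The labels give a replicate number from 1 to 6 in each genotype and name no tissue, age, growth condition, allele or pooling. Nothing in the labels says that the arrays of a genotype came from separate plants, so each p-value reflects no more than the variation among these arrays, which could be technical in origin.

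Chlorophyll is made in the plastid from a ring and a tail. The ring is built from glutamate through the tetrapyrrole pathway: magnesium is inserted into protoporphyrin IX, CHLM (magnesium protoporphyrin IX methyltransferase) then methylates the product, and later steps give chlorophyllide. The tail comes from the plastid isoprenoid pathway as a geranylgeranyl group, which CHLP (geranylgeranyl reductase) reduces to phytyl, and chlorophyll synthase joins tail and ring. CHLP also supplies the phytyl tail of tocopherols and phylloquinone. Both enzymes are encoded in the nucleus, translated in the cytosol and imported into the plastid, so neither is itself made on the ribosome that lacks L11.

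The deposited table held 1 intensity in arbitrary units for 3439 probes on each array, with array sums between 3597 and 3678. Neither gene was listed at 0 on any array, and the lowest of their 24 values, 0.637, was 10.9 times the intensity of 0.0583 that replaced zeros. Arrays with neighbouring replicate numbers (1 and 2, 3 and 4, 5 and 6) are called sets here, because over all tested probes they differed by a median of 0.085 in WT and 0.083 in prpl11 on the log2 scale, against 0.15 and 0.17 for other arrays of the genotype. Markers of leaf, root, seed, flower and senescing tissue were not analysed here (0 of 10 had a probe of their own), so the tissue was not checked. In RNA from whole tissue, fewer cells of a type and less RNA per cell cannot be told apart.

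Whether the transcript for the side-chain enzyme differed between the genotypes was asked first. CHLP transcripts were lower in prpl11 than in WT, by about 20% in the normalized values described below, and they were lower in each of the 6 same-numbered pairs. The deposited CHLP intensity in WT had a lowest value of 1.90, a median of 2.14 and a highest value of 2.58, with a mean of 2.18 ± 0.26 (SD, n = 6). In prpl11 its lowest value was 1.47, its median 1.59 and its highest 1.91, with a mean of 1.65 ± 0.16 (SD, n = 6). In the deposited values the groups touched at a single point, where prpl11 replicate 4 (1.91) lay just above WT replicate 2 (1.90). The other prpl11 arrays lay below all WT arrays.

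After log2 transformation and quantile normalization the change of CHLP, prpl11 minus WT, was -0.32 ± 0.08 (SE), with a 95% interval of -0.50 to -0.14 and a limma adjusted p of 0.0410. As a ratio this is 0.801, with an interval from 0.707 to 0.907. The size depended on the scaling: the change was -0.38 with median centring and -0.39 without normalization (limma adjusted p = 0.0280 and 0.0153). On the normalized log2 values the groups overlapped more than on the deposited ones. There prpl11 replicate 4 (0.963) lay above WT replicates 1 (0.953) and 2 (0.867), and prpl11 replicate 6 (0.873) above WT replicate 2. The same fit called 184 of 3331 probes (5.52%), and lower calls made up 3.06% of the probes tested. Of the 3331 probes, 139 had a lower change than CHLP, and 221 had a change larger in size. The residual SD of CHLP, 0.147, was close to the median over all tested probes, 0.144, on the log2 scale.

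**Figure D1:**
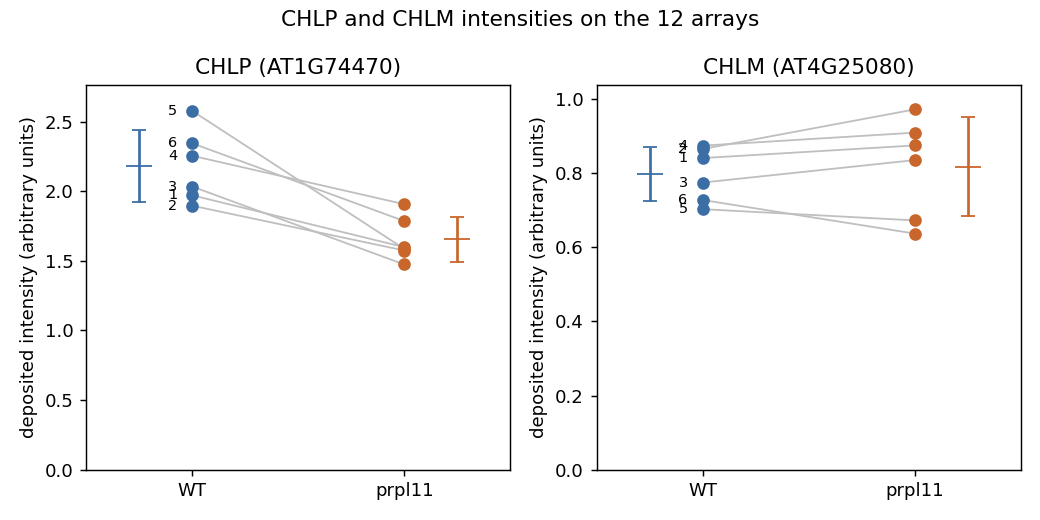
Deposited intensity (arbitrary units) of CHLP and CHLM on 6 WT and 6 prpl11 arrays. Points are arrays, numbers are replicate numbers, grey lines join same-numbered arrays, and bars are the mean ± SD; every CHLP line falls, from a mean of 2.18 to 1.65, while 4 CHLM lines rise and 2 fall.

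The size of the CHLP decrease was not even across the arrays. On the log2 scale the 6 pairs gave -0.27, -0.21, -0.38, -0.15, -0.61 and -0.30 for replicate numbers 1 to 6. Pair 5 had the largest difference, where the WT array was the highest of all 12, and pair 4 the smallest, where the prpl11 array was the highest of its genotype. By sets the mean difference was -0.24 in replicates 1 and 2, -0.27 in replicates 3 and 4, and -0.45 in replicates 5 and 6. The set means of the deposited intensity were 1.93, 2.14 and 2.46 in WT, against 1.59, 1.69 and 1.69 in prpl11, so the WT sets lay farther apart. A term for a genotype effect that differs between sets did not pass for CHLP (limma adjusted p = 0.690), and it passed for 0.66% of probes.

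The call of CHLP was a near one. It was lost without any 1 of 8 arrays (WT replicates 3, 4, 5 and 6 and prpl11 replicates 1, 2, 3 and 5), with limma adjusted p between 0.0674 and 0.0897 and changes between -0.33 and -0.27, and was kept without any of the other 4. With neighbouring numbers averaged to 3 values per genotype the limma adjusted p was 0.468, and with the replicate number as a block it was 0.00830, in a fit that called 649 probes, 10.3% of those tested as higher and 9.19% as lower.

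For CHLM, the methyltransferase of the ring, no difference between the genotypes passed the test. Its deposited intensity in WT had a lowest value of 0.703, a median of 0.808 and a highest value of 0.875, with a mean of 0.798 ± 0.073 (SD, n = 6). In prpl11 the lowest value was 0.637, the median 0.855 and the highest 0.972, with a mean of 0.817 ± 0.13 (SD, n = 6). All 6 WT values lay inside the range of the prpl11 values.

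The log2 change of CHLM was 0.03 ± 0.10 (SE), with a 95% interval of -0.18 to 0.25 and a limma adjusted p of 0.926. As a ratio the interval runs from 0.882 to 1.19, so a decrease of the size estimated for CHLP, to 0.801, lies outside it. That interval treats the arrays of a genotype as independent. On set averages the SE of the CHLM change was 0.14, and whether such a decrease lies outside an interval there was not tested. The interval of CHLP itself, from 0.707 to 0.907, overlaps that of CHLM. With the replicate number as a block the interval narrowed to between -0.07 and 0.14 and the adjusted p was 0.642. The residual SD of CHLM fell from 0.181 without the block to 0.0783 with it, against 0.147 and 0.114 for CHLP, so more of the spread of CHLM than of CHLP was shared by same-numbered arrays.

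CHLM moved in opposite directions in different sets. Its log2 differences in the 6 pairs were 0.01, 0.14, 0.12, 0.11, -0.03 and -0.15 for replicate numbers 1 to 6. The first 4 pairs were higher in prpl11 and the last 2 lower, with set means of 0.07, 0.11 and -0.09. Replicates 5 and 6 also had the lowest CHLM values of each genotype, 0.703 and 0.728 in WT and 0.673 and 0.637 in prpl11. The term for a genotype effect that differs between sets did not pass for CHLM (limma adjusted p = 0.551). Without replicates 5 and 6 the change of CHLM was 0.09 (limma adjusted p = 0.458).

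**Figure D2:**
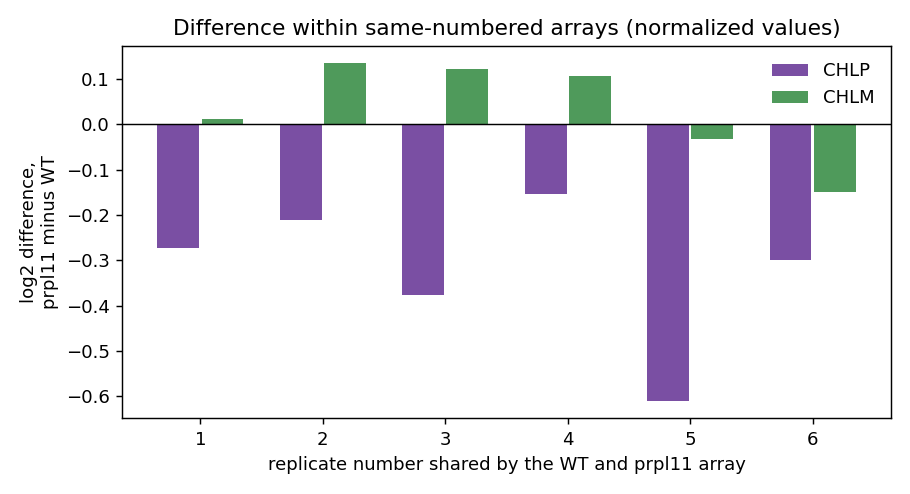
Log2 difference, prpl11 minus WT, of normalized CHLP and CHLM values within each pair of same-numbered arrays (x axis, replicate number). CHLP bars lie below 0 in all 6 pairs, between -0.61 and -0.15, whereas CHLM bars lie above 0 in pairs 1 to 4 and below 0 in pairs 5 and 6.

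The side-chain gene was then compared with the ring gene on the same arrays. The quantity was log2 CHLP minus log2 CHLM on each array, in which only the difference between genotypes has a meaning, since levels of different probes cannot be set against each other. Its differences, prpl11 minus WT, were -0.29, -0.35, -0.50, -0.26, -0.58 and -0.15 for replicate numbers 1 to 6, lower in prpl11 in every pair. Its mean was 1.41 ± 0.27 in WT and 1.06 ± 0.27 in prpl11 (SD, n = 6 each), and the ranges overlapped, from 1.09 to 1.83 and from 0.742 to 1.48. The change of CHLP minus the change of CHLM was therefore -0.35 ± 0.16 (SE) over all arrays.

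A two-sided exact permutation test over the 12 arrays (924 assignments) gave p = 0.0541 for this difference, which did not pass 0.05. Within same-numbered arrays the same difference had an SE of 0.06, and a two-sided exact sign permutation over the 6 pairs gave p = 0.03125, the smallest value that 6 pairs allow. Both p-values are for 1 comparison and are not adjusted. The members were chosen with earlier results of these data known, so this comparison was not fixed before the data were seen. Leaving out replicate 1 or 2 of WT, or replicate 5 or 6 of prpl11, brought the exact permutation p over arrays to between 0.0195 and 0.0498, and leaving out any of the other 8 arrays gave 0.0671 to 0.108. In the 3 sets, taken as averages, the exact sign permutation cannot go below p = 0.25, which it gave. Without pairing, the exact permutation of the 3 set averages per genotype, which cannot reach 0.05 either, gave p = 0.3.

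**Figure D3:**
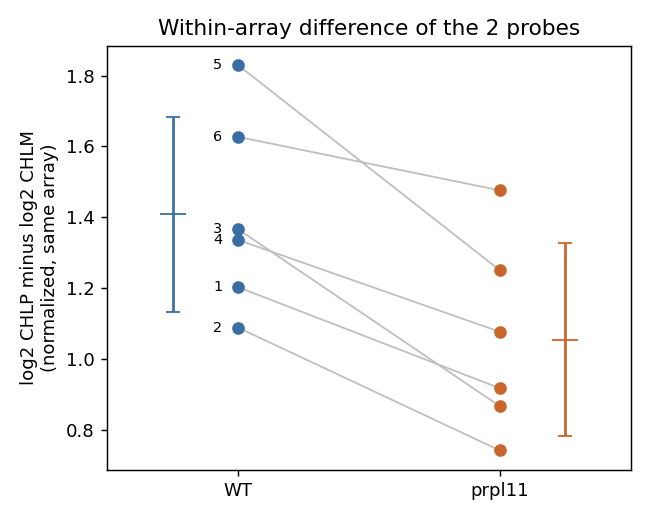
Log2 CHLP minus log2 CHLM (normalized values of the same array) in WT and prpl11. Points are arrays with their replicate numbers, grey lines join same-numbered arrays and bars are the mean ± SD; all 6 lines fall, while the ranges of the genotypes (1.09 to 1.83 and 0.742 to 1.48) overlap.

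Across arrays the members did not rise and fall together. The Pearson correlation of their normalized log2 values was -0.32 over the 12 arrays (Spearman -0.28), -0.81 over the 6 WT arrays (Spearman -0.66) and -0.12 over the 6 prpl11 arrays (Spearman -0.31). In WT, replicates 5 and 6 were the highest for CHLP and the lowest for CHLM. These points share sets and array scaling, so the correlations are descriptions of these arrays.

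The other genes of the pathway were sparsely represented. Of 44 genes listed for the ring and side-chain branches, CHLP and CHLM were tested. Thus 1 of 2 was called lower and none higher, against 3.06% and 2.46% of all 3331 probes. Their median change was -0.14, against 0.01 over all probes. As these 2 genes are the members themselves, the count restates their values and is no result about the pathway. HEMA3, a gene of the glutamyl-tRNA reductase family that stands at the start of the ring branch, was added after the probe annotation had been seen. Its intensity was 1.06 ± 0.13 in WT and 1.04 ± 0.19 in prpl11 (SD, n = 6), and its log2 difference was -0.01 ± 0.10 (SE) with a limma adjusted p of 0.980.

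A further 4 probes, also chosen after the annotation had been seen, were each listed with 2 genes of the same branch, and no gene is named from them. The 2 probes of ring genes had log2 changes of 0.02 ± 0.10 and -0.03 ± 0.08 (SE), with limma adjusted p of 0.962 and 0.930. The 2 probes of side-chain genes had 0.11 ± 0.11 and 0.14 ± 0.11 (SE), with limma adjusted p of 0.732 and 0.618. None of the 4 passed, with or without the replicate block, and both probes of side-chain genes had point estimates on the other side of 0 from CHLP.

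Among 77 genes of the neighbouring pathways, of the antenna and of the regulators and markers, 3 were tested and none passed. AT1G78620, placed by its identifier in the list of phytyl-tailed products, had 0.514 ± 0.057 in WT and 0.557 ± 0.072 in prpl11 (SD, n = 6), and its log2 difference was 0.13 ± 0.09 (SE) with a limma adjusted p of 0.570. Z-ISO, the isomerase of zeta-carotene on the way to carotenoids, had a log2 difference of 0.12 ± 0.11 (SE) and a limma adjusted p of 0.703. When single arrays were left out, the value of Z-ISO ran from 0.05 (without WT replicate 4) to 0.18 (without WT replicate 2), and that of AT1G78620 from 0.08 (without WT replicate 3) to 0.17. LHB1B2, an antenna protein that binds chlorophyll, had a log2 difference of 0.19 ± 0.09 (SE) and a limma adjusted p of 0.332; other copies in the same family could contribute to that probe. The size of the LHB1B2 value depended on the scaling: it was 0.33 with median centring and 0.32 without normalization (limma adjusted p = 0.104 and 0.0714), and 0.10 with centring by array position. Quantile normalization left tied values at this brightness, so that pair 4 differed by 0 where the deposited log2 values differed by 0.10. With the replicate number as a block AT1G78620 and LHB1B2 passed, at limma adjusted p of 0.0435 and 0.0473, in a fit that called 19.5% of all probes. When sets were averaged and then blocked, both missed the threshold (0.230 and 0.103).

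**Figure D4:**
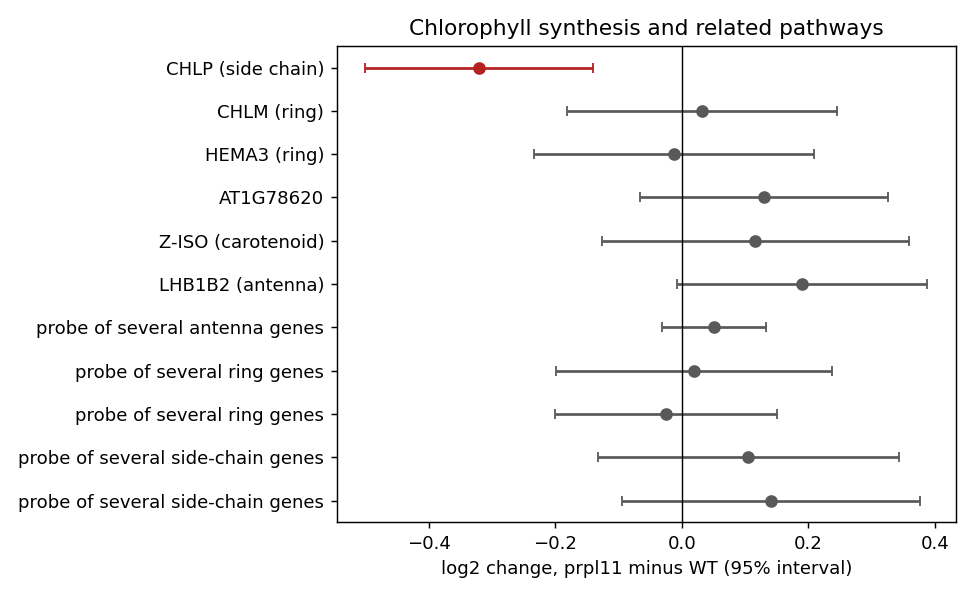
Log2 change, prpl11 minus WT, with its 95% interval from limma, for CHLP, CHLM, the other measured genes of related pathways and 5 probes listed with several genes of a single list. CHLP (red) passed the adjusted threshold at -0.32, and the intervals of the other items include 0.

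The genes whose values followed each member most closely over the 12 arrays were chosen by that likeness, so their patterns are not independent of the member's own. For CHLP the 5 highest Pearson correlations among 662 other single-gene probes were those of AT3G09080 (0.869), AT3G58830 (0.852), AT4G27250 (0.849), AT5G19540 (0.844) and AT1G21660 (0.834), with Spearman values from 0.832 to 0.874. After each genotype's mean had been taken out, their correlations with CHLP ranged from 0.575 to 0.851. AT3G09080 and AT1G21660 were themselves called lower, with log2 changes of -0.76 and -0.59. The call of AT3G09080 was kept in 26 of 27 alternatives and lost on set averages (limma adjusted p = 0.140). The changes of AT5G19540 (-0.22), AT3G58830 (-0.17) and AT4G27250 (-0.08) did not pass. AT5G19540 and AT3G58830 did with the replicate block (limma adjusted p = 0.00830 and 0.0190) and with centring by array position (0.0243 and 0.0318). When sets were averaged and then blocked, both missed the threshold (0.0772 and 0.131). Since likeness to CHLP over both genotypes chose these genes, their direction is no independent result.

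For CHLM the 5 closest were AT1G55440 (0.951), AT2G37510 (0.949), AT4G26770 (0.945), AT5G67490 (0.939) and AT1G24040 (0.934), with Spearman values from 0.825 to 0.930. None was called, their log2 changes lay between -0.06 and 0.03, and their correlations with CHLM after removal of the genotype means were 0.947 to 0.979. Like CHLM, these genes varied between arrays of a genotype and showed no called difference between genotypes. Since likeness to CHLM chose them, this pattern is no independent result either. On a grid of 16 rows inferred from the order of the probe numbers, 3 of these 5 lay in the row of CHLM and none of the 5 closest to CHLP lay in the row of CHLP; the part of array position in the likeness was not tested.

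The place of the members on that grid was also compared with their changes, after the results had been seen. Around CHLP, 8 adjacent probes had a median log2 change of 0.02, with 1 called lower and 1 called higher, and the 21 probes within 2 rows and columns had a median of -0.03, with 3 called lower. Around CHLM the 8 adjacent probes had a median of -0.12, with 1 called lower. The 22 probes within 2 rows and columns of CHLM had a median of -0.02, with 2 called lower. Over all 3331 tested probes, 3.06% were called lower and 2.46% higher. Whether the calls around the members exceed these shares was not tested. When each array was centred on the probes around each position, the change of CHLP was -0.30 and did not pass (limma adjusted p = 0.0945), that of CHLM was 0.03, and the difference between them was -0.33 (exact permutation p = 0.0823).

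**Figure D5:**
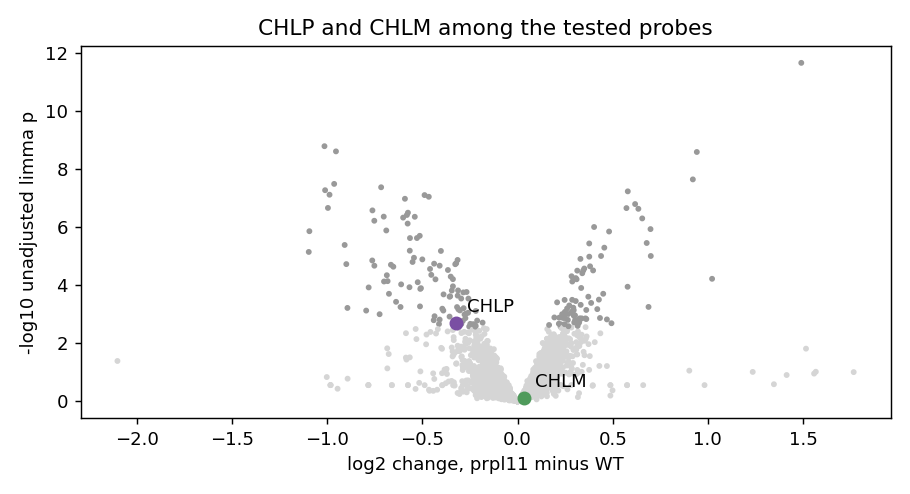
Log2 change, prpl11 minus WT, against -log10 of the unadjusted limma p for the 3331 tested probes. Dark grey points passed an adjusted p of 0.05 (184 probes); CHLP lies low in the left arm of called decreases and CHLM near the origin.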

How the data were processed

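The deposited table of the series, 1 value per probe and array, was used. The authors' deposited values are intensities on a linear scale, as the values themselves show; for background correction, scanner, array type and scale reference no source used here gives a description. Zeros were replaced by an intensity of 0.0583, the 1st percentile of the positive values, log2 was taken, the 12 arrays were quantile normalized and 108 probes at 0 on every array were left out. Genes were named from probes with 1 listed gene (692 of 3439; 870 list several, 1877 none), with symbols by gene identifier from the TAIR10.1 RefSeq table (2 not found); the array's build is unstated, so no coordinates are given.

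Genotypes were compared with limma 3.58.1 in R 4.3.3 (lmFit, eBayes, no block), with Benjamini-Hochberg adjustment over 3331 probes and a threshold of 0.05. The script was tested on simulated data with independent arrays. That test held no sets or pairs, so it does not cover the likeness between arrays seen here. The difference between the members' changes was tested by exact permutation of arrays. Deviations from the genotype means correlated at 0.288 to 0.514 in the 6 same-numbered pairs, all above 0.1, so the numbers were used as pairs. This comes from the data, not the labels. Arrays with unlike numbers were not compared in this way, so pairing by number cannot be told apart from sharing a set. The members and lists were chosen with earlier results of these data known. Named were the members, listed genes with a tested single-gene probe, and the 5 genes of highest Pearson correlation with each member. HEMA3 and the probes with several genes were added later. Alternatives covered scaling, pseudocount, filters, blocks, sets, variance models, array omissions and, added after seeing the data, centring by array position. Figures were drawn with matplotlib 3.10.9.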

Additional observations from a re-analysis of the deposited data

How the results depend on the processing

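The decrease of CHLP and the sign of its difference from CHLM were kept in the 27 and 22 alternatives run. Blocks, set averages, filters and variance models other than array weights cannot move these estimates, so a kept sign there is no check. The calls were not kept: CHLP passed in 11 of 27 (changes from -0.39 to -0.25, limma adjusted p from 0.00830 to 0.468). The difference passed in 9 of 22 (exact permutation p from 0.0195 to 0.3), a count that includes set averages, on which it could not pass. Among the named genes, the replicate block changed no other call than those given above. CHLP did not pass with set averages, with or without the sets as a block, or with a random block for each genotype and set (-0.32 in each), with array weights (-0.30), without replicate numbers 1 and 2 (-0.36), 3 and 4 (-0.34) or 5 and 6 (-0.25), or with centring by position (-0.30); in these 8 fits 0 of the 2 pathway genes were called. Leaving out single arrays gave -0.36 to -0.27 for CHLP, -0.011 to 0.092 for CHLM, -0.44 to -0.27 for their difference, 0 to 1 pathway calls and 142 to 179 calls over all probes. The sign of CHLM also turned without replicate numbers 3 and 4 (-0.0086). The difference passed with median centring and without normalization (-0.42 in each). For a within-array difference these are the same test, because a shift of the whole array leaves it unchanged. It also passed with a pseudocount of 0.236 (-0.31) and with the replicate block (-0.35). Without numbers 5 and 6 it passed (-0.34) at the smallest p that the arrays left allow (exact permutation p = 0.0286). Calls over all probes were 649 with the replicate block, 23 on set averages, 72 with the random block, 111 without numbers 1 and 2 and 96 without 3 and 4. Higher calls made up 44.6% after quantile normalization, 32.2% after median centring and 28.2% without normalization. The small changes of the genes most like CHLM turned sign: AT1G55440 with median centring (-0.042), no normalization (-0.052), centring by position (-0.011), without numbers 1 and 2 (-0.054) or 3 and 4 (-0.032) and from -0.044 to 0.075 over single omissions; AT2G37510 with median centring (-0.027), no normalization (-0.038), without numbers 1 and 2 (-0.032) and from -0.019 to 0.10 over omissions; AT4G26770 without numbers 5 and 6 (0.017) and from -0.10 to 0.012 over omissions; AT5G67490 with array weights (0.044), centring by position (0.12), without numbers 5 and 6 (0.089) and from -0.11 to 0.061 over omissions; AT1G24040 with array weights (0.061), centring by position (0.032), without numbers 5 and 6 (0.091) and from -0.12 to 0.095 over omissions. The cause was not tested.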
